A study of Mus musculus with 6 samples.

Results

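The genes of the pore-forming and accessory subunits of potassium, sodium, calcium and pacemaker channels were followed in sorted mouse cardiomyocytes. They were taken by symbol, as every gene whose name begins with Kcn or Cacn, or with Scn or Hcn followed by a digit, which gave 139 of the 23337 genes in the table. Of these, 33 had under 10 counts in every library and are called silent below, 18 reached 10 counts in a library but did not pass the filter on low counts, and 88 were tested. All mice were wild type, were injected with adeno-associated virus (AAV) on postnatal day 1 and were 4 weeks old when their cardiomyocytes were isolated by Langendorff perfusion and sorted by flow cytometry. Viruses delivered XBP1S, ATF6N or, as control, GFP, with 2 libraries in each of the groups AAV-XBP1S, AAV-ATF6N and AAV-GFP. The name XBP1S normally stands for the spliced and active XBP1 protein, and ATF6N for the nuclear fragment of ATF6, both of which switch on genes of the unfolded protein response. The labels give neither the promoter of the virus nor the number of mice behind a library, and they do not say that libraries of a group came from separate animals, so p-values measure only the spread between these libraries, which may be technical.

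The heartbeat of a ventricular myocyte is shaped by a fixed order of currents. Sodium channels give the upstroke, L-type calcium channels carry the current that starts contraction, and several families of potassium channels repolarise the cell and hold it at rest. In the adult mouse ventricle repolarisation rests mainly on fast transient outward channels and delayed rectifiers, while the currents through the products of Kcnh2 and of Kcnq1 with Kcne1, which dominate in human ventricle, are small.

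Libraries held 67702482 to 112049342 counts, and channel genes took 0.19% of the counts in each AAV-XBP1S library, 0.236% and 0.238% in AAV-ATF6N, and 0.204% and 0.242% in AAV-GFP. Levels are given as CPM, that is reads relative to the library size after TMM adjustment, and between genes as CPM per kilobase of exon. Xbp1 had a log2 fold change of 0.61 in AAV-XBP1S against AAV-GFP (adjusted p = 0.307 in edgeR's quasi-likelihood test) and Atf6 had 1.47 in AAV-ATF6N (adjusted p = 0.126), so neither label check passed the threshold of 0.05. Both genes lay above both controls in either virus group, with Xbp1 at 0.47 in AAV-ATF6N (adjusted p = 0.358) and Atf6 at 0.70 in AAV-XBP1S (adjusted p = 0.425). Between the viruses Xbp1 differed by -0.14 in AAV-ATF6N against AAV-XBP1S (adjusted p = 0.802). AAV-GFP replicate 1 stood apart from the other 5 libraries on the first principal component, which held 43.9% of the variance, and had 0.337% of its counts on the ribosomal RNA gene Rn45s, against 0.0319% to 0.130% in the others. The 10 cardiomyocyte markers were all abundant and summed to 98940 and 104800 CPM in AAV-XBP1S, 144500 and 142400 in AAV-ATF6N, and 126700 and 123200 in AAV-GFP. The 8 endothelial markers summed to 1056 and 1396 CPM in AAV-XBP1S, 621.2 and 576.8 in AAV-ATF6N, and 677.6 and 942.7 in AAV-GFP, so both sums differed between the viruses. The cardiomyocyte list was not uniform. Myh6 had 26510 and 44250 CPM in AAV-XBP1S against 66560 and 65070 in AAV-ATF6N, and Atp2a2 had 8690 and 13480 against 22370 and 20890. Tnni3 and Myl2 overlapped between the viruses. The median log2 fold change of the 10 markers was 0.077 in AAV-ATF6N against AAV-XBP1S. The part of either list in the channel results was not tested, and in bulk samples fewer cells of a type and less RNA per cell cannot be told apart.

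**Figure D1:**
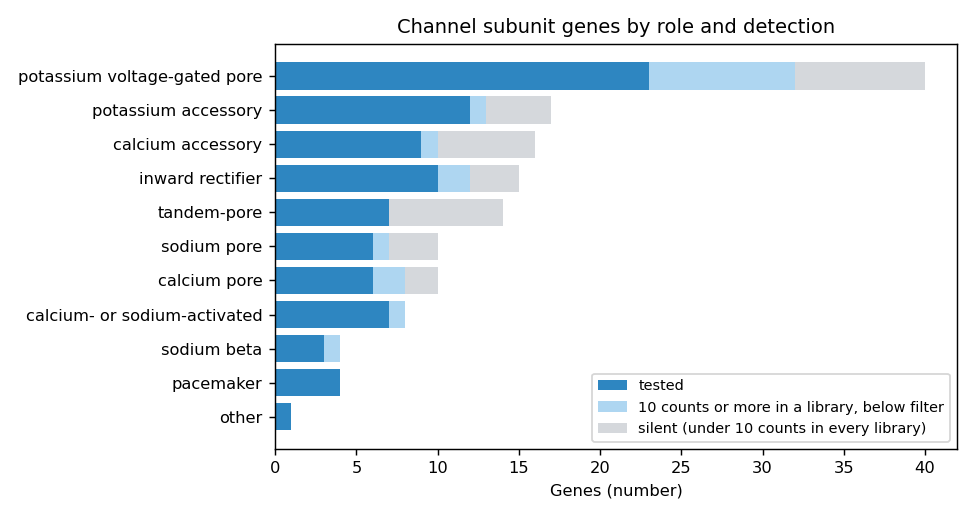
Number of channel genes by role, split into genes tested, genes that reached 10 counts in a library but stayed below the filter, and silent genes. The tandem-pore family has 7 of 14 members silent, whereas all 4 pacemaker genes were tested.

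Silent genes were unevenly spread over the families. Among tandem-pore potassium channels 7 of 14 were silent, among calcium channel accessory subunits 6 of 16, all of them of the gamma family, and among voltage-gated potassium pores 8 of 40. The neuronal M-current gene Kcnq3, the neuronal sodium pores Scn1a, Scn8a and Scn9a, the N-type calcium pore Cacna1b and the retinal calcium pore Cacna1f were all silent. Of the 33 silent genes, 13 had no count in any library, for which a floor of 3 counts allows up to 0.0305 to 0.0459 CPM depending on the library, by counting error only. The large-conductance calcium-activated pore Kcnma1 had at most 10 counts in a library and was not tested, nor was the sodium beta subunit Scn2b, with at most 12. None of the 4 pacemaker genes was silent, and 23 of 40 voltage-gated potassium pores and 10 of 15 inward rectifiers were tested.

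A few genes made up most of the channel RNA. The 3 highest, Kcng2, Kcnip2 and Kcnk3, held 55.0% of the summed CPM per kilobase of all members and the 15 highest held 88.9%. Only 15 members averaged above 10 CPM per kilobase over the 6 libraries, 17 lay between 1 and 10, and 56 of the 88 tested genes were below 1. The median tested channel gene stood at 0.316 CPM per kilobase, against 4.13 for all 14587 genes tested.

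Kcng2, a modifier subunit that forms no channel by itself, averaged 115 ± 13.9 CPM per kilobase in AAV-XBP1S, 160 ± 13.4 in AAV-ATF6N and 190 ± 15.6 in AAV-GFP (SD, n = 2 each). Kcnip2, the calcium-binding partner of the fast transient outward channel, averaged 122 ± 3.11, 166 ± 2.52 and 142 ± 33.3 CPM per kilobase in AAV-XBP1S, AAV-ATF6N and AAV-GFP. Kcnk3, a tandem-pore background channel, averaged 66.1 ± 17.6, 78.8 ± 6.76 and 101 ± 11.1 CPM per kilobase in the same groups. Below these lay, in falling order of the mean over all libraries, such genes as Kcnj8, Kcnj5, Kcnq1, Kcnh2, Kcnj12, Kcnj11, Cacnb2, Hcn2, Kcne1, Kcna5 and Cacna2d1. Neighbours in that order lay close together, and from Kcnj5 downward the libraries of each gene overlapped those of the next, as the plot of levels shows.

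**Figure D2:**
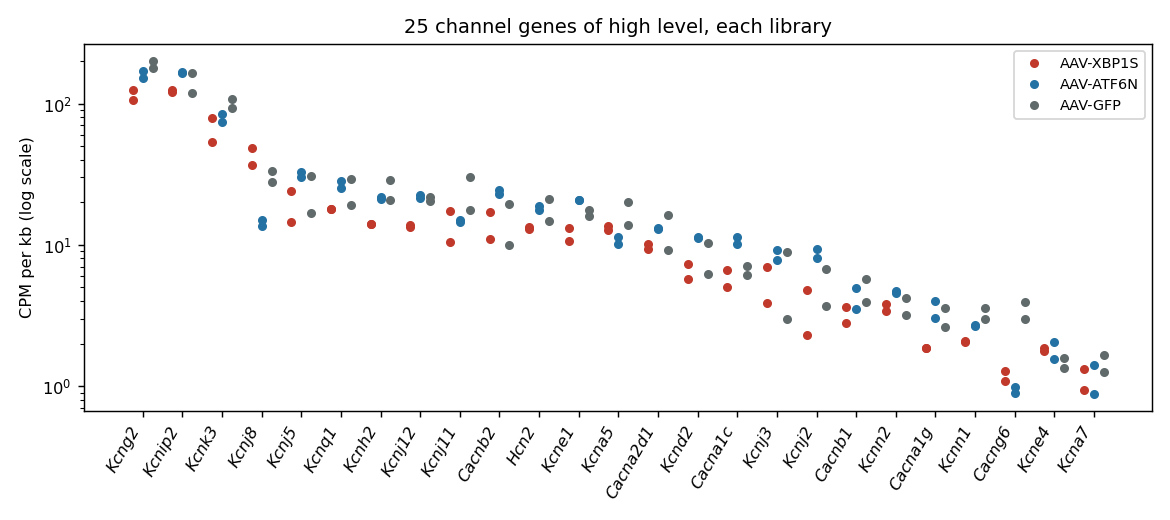
CPM per kilobase of exon (log axis) of 25 channel genes of high mean level, each point a library, in AAV-XBP1S (red), AAV-ATF6N (blue) and AAV-GFP (grey). Kcng2, Kcnip2 and Kcnk3 lie apart from the rest, and the AAV-ATF6N points of Kcnj8 lie below all its other points.

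No channel gene passed an adjusted p of 0.05 in AAV-XBP1S against AAV-GFP by edgeR's quasi-likelihood test, where 0.178% of all genes were called higher and 0.137% lower. At an unadjusted p under 0.05 there were 4 of 88 higher, or 4.55%, and 12 lower, or 13.6%, beside 6.37% higher and 5.21% lower among all genes tested. DESeq2 called 0 higher and 2 lower, Scn4b and Cacng6, of the 100 members to which it gave an adjusted p, against 1.9% and 1.27% of all genes. Groups did not overlap for 18 members on the higher side and 25 on the lower side (20.5% and 28.4%), where all genes gave 19.1% and 16.8%. The median log2 fold change of the tested members was -0.22, against -0.01 for all genes. It was 0.12 without AAV-GFP replicate 2 and -0.25 without AAV-GFP replicate 1. Its sign thus changed when AAV-GFP replicate 1, which stood apart on the first principal component, was the only control. The median of all genes was 0.079 and 0.032 in those settings. Values lay above 0 for 36 members and below 0 for 52 (40.9% and 59.1%), against 48.8% and 51.1% of all genes. The authors' deposited table held 0 members at an adjusted p under 0.05, beside 0.809% of its genes higher and 0.502% lower.

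In AAV-ATF6N against AAV-GFP, edgeR again called 0 of the 88 channel genes, with 0.35% of all genes called higher and 0.165% lower. Unadjusted p-values under 0.05 were found for 7 members higher and 5 lower (7.95% and 5.68%), against 6.92% and 6.54% of all genes. DESeq2 called 4 higher, Kcna4 and Kcnj14 among them, and 2 lower, Kcnj8 and Cacng6, where 2.24% and 1.51% of all genes were called. The authors' deposited table, with 1.77% of its genes higher and 0.937% lower at an adjusted p under 0.05, had Kcnj14 among the members higher and Kcnj8 and Cacng6 lower. Groups did not overlap for 23 members higher and 17 lower (26.1% and 19.3%), beside 27.9% and 26.7% of all genes. The members' median was 0.06, against -0.02 for all genes. It was 0.36 without AAV-GFP replicate 2, 0.0295 without AAV-ATF6N replicate 1 and -0.15 after a correction for gene length. All genes had 0.035, -0.029 and -0.017 in those settings. Neither the size nor the sign of the members' median held. The setting without AAV-GFP replicate 2 leaves AAV-GFP replicate 1, which stood apart on the first principal component, as the only control. Without AAV-GFP replicate 2 edgeR called 11 members, among them Cacnb2, Cacng6, Kcna4, Kcnd2, Kcnj3, Kcnj8 and Kcnj14, and 3055 genes in all. Values were above 0 for 48 members and below 0 for 40 (54.5% and 45.5%), against 48.7% and 51.3% of all genes.

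The direct comparison of AAV-ATF6N with AAV-XBP1S gave the only edgeR call, Kcnj14, higher in AAV-ATF6N, among 0.171% of all genes called higher and 0.0548% lower. Without adjustment 15 members were higher and 5 lower (17% and 5.68%), against 5.69% and 7.55% of all genes. DESeq2 called 8 higher and 2 lower of 92, beside 2.05% and 3.34% of all genes. Among the 8 were the inward rectifiers Kcnj14, Kcnj2 and Kcnj12, the calcium pores Cacna1c and Cacna1g, and Kcne1, while the 2 lower were Kcnj8 and Kcnab3. Groups did not overlap for 36 members higher and 20 lower (40.9% and 22.7%), where all genes gave 30.1% and 26.8%. The members' median was 0.15, against -0.01 for all genes, with 47 above 0 and 41 below (53.4% and 46.6%), beside 49.5% and 50.4%. That median was 0.28 and 0.35 without AAV-XBP1S replicates 1 and 2, 0.33 without AAV-ATF6N replicate 2 and 0.059 after the correction for gene length. Without AAV-GFP replicate 1 the log2 fold changes in this comparison were 3.22 for Kcnj14, -1.58 for Kcnj8 and -2.09 for Kcnab3. Without AAV-GFP replicate 2 they were 3.19, -1.60 and -2.11. AAV-GFP libraries enter this comparison only through the filter, the normalization and the shared spread, so these values could hardly move. Tested channel genes had a median length of 3958 bases, against 2826 for all genes tested.

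The Kcnj14 gene (chromosome 7, 45816467 to 45824747, mm10, minus strand) encodes an inward rectifier of the same subfamily as Kcnj2 and Kcnj12. It had 0.559 and 0.856 CPM in AAV-XBP1S, 6.19 and 6.95 in AAV-ATF6N, and 1.87 and 1.37 in AAV-GFP, from 52 to 502 reads a library. The AAV-ATF6N libraries lay above and the AAV-XBP1S libraries below both controls. The fit gave log2 fold changes of 3.22 ± 0.37 (SE) in AAV-ATF6N against AAV-XBP1S, a ratio of means of 9.29 (adjusted p = 0.0399, edgeR), 2.01 ± 0.35 in AAV-ATF6N against AAV-GFP (adjusted p = 0.0908) and -1.20 ± 0.35 in AAV-XBP1S against AAV-GFP (adjusted p = 0.287). The direct call was lost whenever a library of AAV-XBP1S or AAV-ATF6N was left out, with log2 fold changes of 2.90 to 3.55. Leaving out an AAV-GFP library is no such check, because those libraries enter this comparison only through the filter, the normalization and the shared spread.

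**Figure D3:**
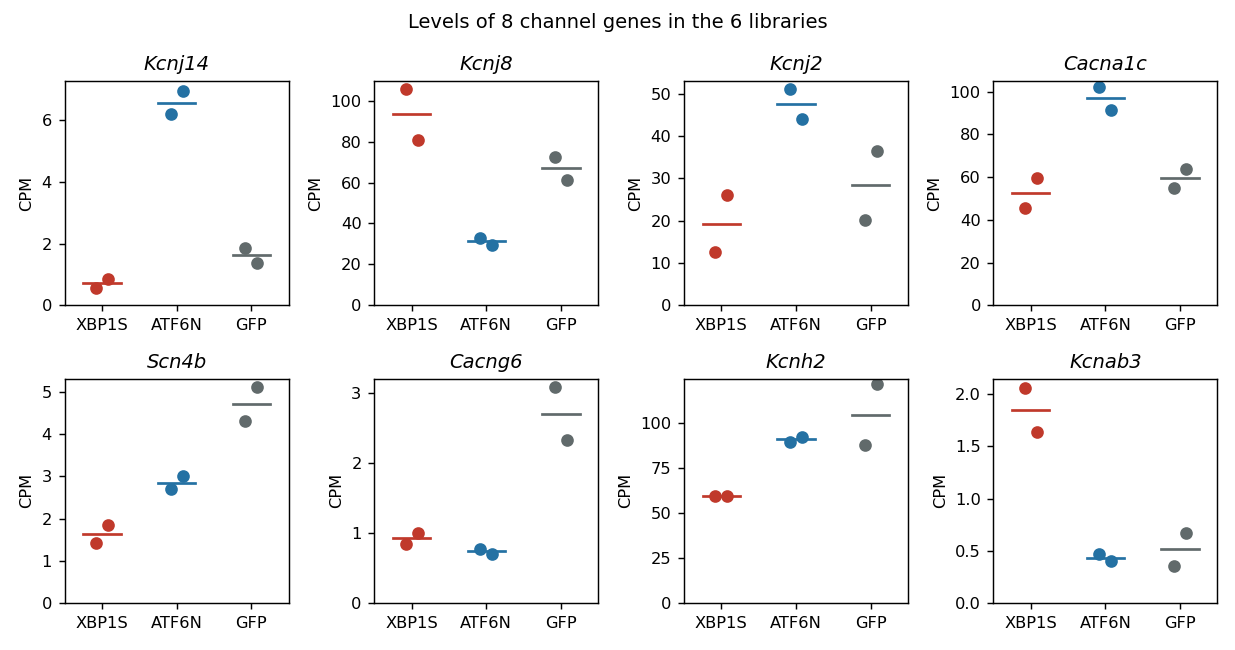
CPM of 8 channel genes in each library (points) with the group mean (line), for AAV-XBP1S, AAV-ATF6N and AAV-GFP from left to right, each axis starting at 0. Kcnj14 lies above the controls in AAV-ATF6N and below them in AAV-XBP1S, and Cacng6 lies below them in both.

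The other classical inward rectifiers, which set the resting potential, had smaller differences. Kcnj2 had 12.5 and 26.1 CPM in AAV-XBP1S, 51.1 and 44.1 in AAV-ATF6N, and 20.2 and 36.6 in AAV-GFP. Kcnj12 had 33.1 and 33.8 CPM in AAV-XBP1S, 55.5 and 53.0 in AAV-ATF6N, and 49.9 and 54.0 in AAV-GFP. Both genes had all AAV-ATF6N libraries above all AAV-XBP1S libraries, with log2 fold changes of 1.30 ± 0.42 and 0.70 ± 0.19, and neither passed the adjusted threshold in edgeR (adjusted p = 0.251 and 0.176). Kcnj3 and Kcnj5, the subunits of the acetylcholine-activated channel, had AAV-GFP libraries so far apart, 4.9993 and 14.942 CPM for Kcnj3 and 75.9 and 137 CPM for Kcnj5, that neither virus separated from them without overlap.

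Kcnj8 and Kcnj11 encode the pores of ATP-sensitive potassium channels, Kcnj11 in ventricular myocytes and Kcnj8 also in vascular smooth muscle and pericytes. Kcnj8 had 106 and 80.8 CPM in AAV-XBP1S, 33.0 and 29.5 in AAV-ATF6N, and 72.6 and 61.3 in AAV-GFP, so that no groups overlapped. The log2 fold change was -1.58 ± 0.23 in AAV-ATF6N against AAV-XBP1S (adjusted p = 0.0579, edgeR), -1.10 ± 0.23 in AAV-ATF6N against AAV-GFP (adjusted p = 0.136) and 0.48 ± 0.22 in AAV-XBP1S against AAV-GFP (adjusted p = 0.473). In the authors' deposited table the AAV-ATF6N value was -1.09 with an adjusted p of 0.0185. Among markers of other cells, the pericyte gene Rgs5 had 68.7 and 75.5 CPM in AAV-XBP1S, 34.3 and 30.6 in AAV-ATF6N, and 50.6 and 47.4 in AAV-GFP, the same order of groups as Kcnj8. Rgs5 was the only one of the 8 smooth muscle and pericyte markers with both AAV-ATF6N libraries below both controls, while Acta2, Myh11, Cnn1 and Cspg4 had both above, and the median log2 fold change of the 8 was 0.30. Their sum was 868.9 and 825.6 CPM in AAV-XBP1S, 979.4 and 967.4 in AAV-ATF6N, and 800.2 and 741.1 in AAV-GFP. The summed endothelial markers, given above, had the same order of groups as Kcnj8. The median log2 fold change of those 8 markers was 0.487 in AAV-XBP1S and -0.599 in AAV-ATF6N, each against AAV-GFP. In AAV-ATF6N against AAV-XBP1S it was -1. The part of smooth muscle cells, pericytes or endothelium in the Kcnj8 values was not tested. Kcnj11 had 56.8 and 33.9 CPM in AAV-XBP1S, 48.5 and 47.4 in AAV-ATF6N, and 98.6 and 57.2 in AAV-GFP. Both its log2 fold changes against AAV-GFP were below 0, -0.78 ± 0.35 and -0.70 ± 0.35, with adjusted p of 0.453 and 0.392 in edgeR, and all of its libraries in either virus group lay below the control libraries.

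Beta subunits modulate gating and surface expression of sodium pores, and Scn4b is one of them. Scn4b had 1.43 and 1.86 CPM in AAV-XBP1S, 2.70 and 3.0009 in AAV-ATF6N, and 4.33 and 5.13 in AAV-GFP, with no overlap between groups. It had the smallest p of all members in AAV-XBP1S against AAV-GFP, at a log2 fold change of -1.52 ± 0.30 (adjusted p = 0.139, edgeR; 0.00258, DESeq2), and -0.73 ± 0.30 in AAV-ATF6N (adjusted p = 0.364, edgeR).

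Among calcium channel pores, Cacna1c carries the L-type current. Cacna1c had 45.8 and 59.7 CPM in AAV-XBP1S, 102 and 91.5 in AAV-ATF6N, and 54.9 and 63.8 in AAV-GFP. Its AAV-ATF6N libraries lay above the other 4, at a log2 fold change of 0.71 ± 0.22 against AAV-GFP (adjusted p = 0.296, edgeR) and 0.88 ± 0.22 against AAV-XBP1S (adjusted p = 0.158). The T-type pore Cacna1g had 15.3 and 15.4 CPM in AAV-XBP1S, 32.7 and 25.1 in AAV-ATF6N, and 21.4 and 29.2 in AAV-GFP, with a log2 fold change of -0.72 ± 0.25 in AAV-XBP1S against AAV-GFP (adjusted p = 0.359). All 6 tested calcium pores had log2 fold changes below 0 in AAV-XBP1S against AAV-GFP, from -0.76 to -0.16, with all libraries in the fit, and neither edgeR nor DESeq2 called any. Cacna1c was at 0.057 without AAV-XBP1S replicate 1, so that count of 6 did not hold without that library. Not every pore was followed with a library left out, so the count may depend on other libraries too.

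Of the calcium channel accessory subunits, Cacng6, a gamma subunit, had 0.849 and 1.00 CPM in AAV-XBP1S, 0.776 and 0.704 in AAV-ATF6N, and 3.09 and 2.33 in AAV-GFP. All 4 libraries with a transcription factor lay below both controls. The log2 fold change was -1.55 ± 0.38 in AAV-XBP1S (adjusted p = 0.225, edgeR) and -1.87 ± 0.39 in AAV-ATF6N (adjusted p = 0.139), comparisons that share the AAV-GFP libraries. DESeq2 gave adjusted p of 0.0305 and 0.00357, and the authors' deposited table gave 0.251 and 0.0322. Cacnb2, the main cardiac beta subunit, had 48.9 and 75.7 CPM in AAV-XBP1S, 109 and 102 in AAV-ATF6N, and 44.1 and 86.8 in AAV-GFP. Cacnb4, a beta subunit best known from brain, had 1.76 and 1.67 CPM in AAV-XBP1S, 0.826 and 0.444 in AAV-ATF6N, and 1.60 and 1.28 in AAV-GFP, with a log2 fold change of -1.17 ± 0.46 in AAV-ATF6N against AAV-GFP (adjusted p = 0.358, edgeR). The accessory subunits thus held members on either side of the control in AAV-ATF6N, and Cacng6 was the only one called there by DESeq2 with all libraries, while edgeR called none.

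Voltage-gated potassium pores were the largest group, with 23 tested genes, of which 16 had log2 fold changes below 0 in AAV-XBP1S and 15 in AAV-ATF6N, each against AAV-GFP. Among all genes tested, 51.1% and 51.3% were below 0. Without AAV-GFP replicate 2, Kcnd2 was at 0.11 in AAV-XBP1S and Kcnh2 at 0.066 in AAV-ATF6N, so these counts may depend on single libraries. Kcnh2, the pore of the rapid delayed rectifier, had 59.2 and 59.2 CPM in AAV-XBP1S, 89.6 and 92.2 in AAV-ATF6N, and 87.5 and 121 in AAV-GFP. The AAV-XBP1S libraries lay below the other 4, with a log2 fold change of -0.82 ± 0.22 against AAV-GFP (adjusted p = 0.254, edgeR). DESeq2 gave an adjusted p of 0.0612. In edgeR it was 0.0382 with a correction for gene length and 0.696 with only the 4 libraries compared. Kcng2, the most abundant member, had 353 and 297 CPM in AAV-XBP1S, 424 and 478 in AAV-ATF6N, and 566 and 504 in AAV-GFP. Its libraries did not overlap between groups, and the log2 fold changes against AAV-GFP were -0.72 ± 0.20 in AAV-XBP1S (adjusted p = 0.257) and -0.25 ± 0.20 in AAV-ATF6N (adjusted p = 0.515).

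For the pores of mouse repolarisation itself edgeR called no difference with all 6 libraries. In AAV-ATF6N against AAV-GFP, edgeR called Kcna4 and Kcnd2 without AAV-GFP replicate 2, and DESeq2 called Kcna4. Kcnd2, the main pore of the fast transient outward current, had 26.2 and 33.3 CPM in AAV-XBP1S, 50.7 and 51.6 in AAV-ATF6N, and 28.3 and 46.9 in AAV-GFP. Kcna5, the pore of a delayed rectifier, had a log2 fold change of -0.65 ± 0.24 in AAV-ATF6N against AAV-GFP (adjusted p = 0.344, edgeR). Kcna4, the pore of the slow transient outward current, had 3.31 and 3.25 CPM in AAV-XBP1S, 5.10 and 4.38 in AAV-ATF6N, and 1.28 and 2.48 in AAV-GFP. Its log2 fold change in AAV-ATF6N was 1.34 ± 0.38 (adjusted p = 0.259, edgeR; 0.0492, DESeq2), and every library with a transcription factor lay above both controls. Kcnq1 and its partner Kcne1 had log2 fold changes of -0.44 ± 0.25 and -0.48 ± 0.20 in AAV-XBP1S against AAV-GFP, and 0.14 ± 0.25 and 0.31 ± 0.20 in AAV-ATF6N. The exons of Kcnq1 overlap those of the opposite-strand transcript Kcnq1ot1 over 3.99% of their bases, and the kits named in the labels do not mark strand, so reads of that stretch cannot be assigned to either gene. Other opposite-strand genes likewise overlap 6.01% of the exon bases of Kcnk3, 2.28% of Kcnd3 and 1.9% of Cacna1h.

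Kcnab3, a beta subunit of voltage-gated potassium channels, had the smallest p of the members higher in AAV-XBP1S than in AAV-GFP. Kcnab3 had 2.06 and 1.64 CPM in AAV-XBP1S, 0.468 and 0.398 in AAV-ATF6N, and 0.356 and 0.673 in AAV-GFP. The AAV-XBP1S libraries lay above the other 4, with a log2 fold change of 1.85 ± 0.52 against AAV-GFP (adjusted p = 0.275, edgeR). Against AAV-XBP1S the AAV-ATF6N value was -2.09 ± 0.53 (adjusted p = 0.159, edgeR; 0.0141, DESeq2).

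Pacemaker channels open on hyperpolarisation and are best known from the sinus node. Hcn2, the most abundant pacemaker gene, had 42.9 and 41.6 CPM in AAV-XBP1S, 56.7 and 59.8 in AAV-ATF6N, and 47.2 and 67.5 in AAV-GFP. Hcn4, the main sinus node subunit, had 3.28 and 2.40 CPM in AAV-XBP1S, 4.87 and 4.55 in AAV-ATF6N, and 4.14 and 5.91 in AAV-GFP. Both genes lay below the controls in AAV-XBP1S, with log2 fold changes of -0.44 ± 0.23 and -0.82 ± 0.31, and neither passed the adjusted threshold (adjusted p = 0.523 and 0.391, edgeR). Of all 4 pacemaker genes, 2 lay above both controls in AAV-XBP1S and 2 below, and their median log2 fold change was 0.68. Of the conduction system markers Isl1 had no count in any library and Shox2 at most 0.129 CPM, while Tbx3 had 10.8 and 13.0 CPM in AAV-XBP1S, 12.8 and 13.2 in AAV-ATF6N, and 12.6 and 20.8 in AAV-GFP. Smoc2 went the other way, with 92.2 and 104.1 CPM in AAV-XBP1S, 109.7 and 115.6 in AAV-ATF6N, and 55.1 and 86.2 in AAV-GFP. The 7 conduction markers summed, mostly from Smoc2, to 109.2 and 123.1 CPM in AAV-XBP1S, 126.6 and 133.1 in AAV-ATF6N, and 73.2 and 111.2 in AAV-GFP. The 6 atrial markers summed to 552.7 and 352.3 CPM in AAV-XBP1S, 2205 and 2362 in AAV-ATF6N, and 301.2 and 127.9 in AAV-GFP, mostly from Nppa. Nppa, which ventricular myocytes also express under load, had 2184 and 2340 CPM in AAV-ATF6N, against 229.2 and 101 in AAV-GFP. Myl7 went the other way, with 0.419 and 0.306 CPM in AAV-ATF6N, against 29.7 and 8.83 in AAV-GFP, and Sln likewise. Neither the conduction list nor the atrial list was thus uniform, and their part in the pacemaker values was not tested.

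**Figure D4:**
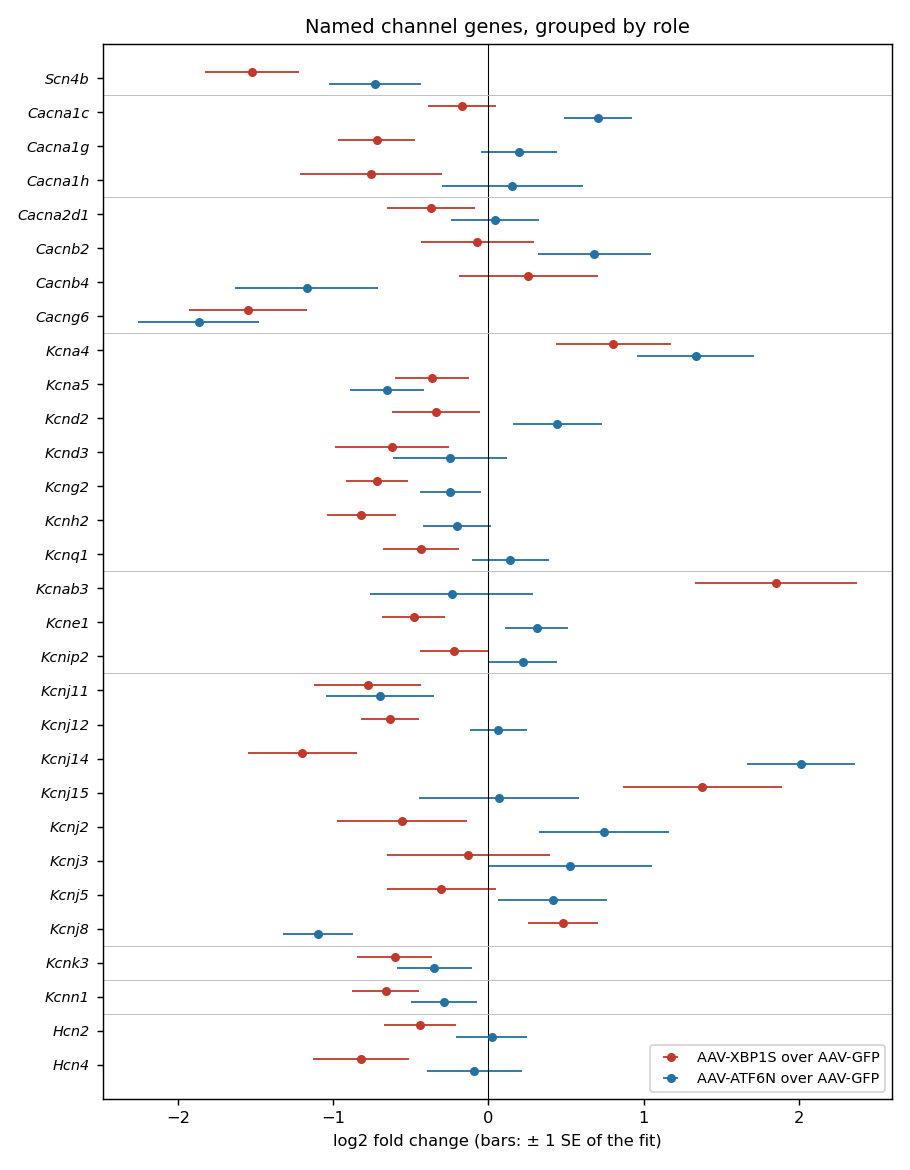
Log2 fold change against AAV-GFP with 1 standard error of the fit for the named channel genes, AAV-XBP1S in red and AAV-ATF6N in blue, grouped by role from the sodium beta subunit at the top to pacemaker genes at the bottom. Kcnj14 and Kcnj8 have the virus groups on opposite sides of 0, while Cacng6 and Scn4b are below 0 in both.

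Among 52 other genes of cardiac excitability, such as pumps, exchangers, scaffolds and regulators, 50 were tested. The transcription factor Klf15, a regulator of Kcnip2 in mouse heart, was the only one past the adjusted threshold against AAV-GFP. Klf15 had 57.1 and 52.1 CPM in AAV-XBP1S, 129.5 and 135.8 in AAV-ATF6N, and 162.5 and 191.3 in AAV-GFP. It fell in AAV-XBP1S, with a log2 fold change of -1.70 ± 0.20 (adjusted p = 0.0322, edgeR), whereas Kcnip2 had 101 and 97.4 CPM in AAV-XBP1S, 133 and 136 in AAV-ATF6N, and 96.3 and 135 in AAV-GFP, a log2 fold change of -0.22 ± 0.22 in AAV-XBP1S (adjusted p = 0.722). At an unadjusted p under 0.05, 0 of the 50 were higher and 7 lower in AAV-XBP1S against AAV-GFP, beside 6.37% and 5.21% of all genes tested. In AAV-ATF6N against AAV-GFP the numbers were 3 higher and 5 lower, beside 6.92% and 6.54%. In the direct comparison they were 7 higher and 4 lower, beside 5.69% and 7.55%. The sulfonylurea receptor gene Abcc8, a partner of the Kcnj8 and Kcnj11 pores, had 87.3 and 100.2 CPM in AAV-XBP1S, 149.8 and 155.7 in AAV-ATF6N, and 62.3 and 140.9 in AAV-GFP. Abcc9, the other such partner, had 127.7 and 295.7 CPM in AAV-XBP1S, 321.5 and 289.1 in AAV-ATF6N, and 92.1 and 279.4 in AAV-GFP. In neither gene were the AAV-ATF6N libraries the lowest, as they were in Kcnj8.

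XBP1 and ATF6 bind known DNA elements, and RefSeq windows from 250 bases before to 50 bases after a gene's start (GRCm38.p6) were searched on both strands for them. Windows were found for 101 of the 139 members. The ER stress response element, CCAAT and CCACG with 9 bases between, was in 0 of these 101, and in 0.137% of all 27025 genes with a window, and its second form was in 0 and in 0.0444%. The core of the unfolded protein response element, TGACGTGG, was in 4, or 3.96%, against 0.714% of all genes. Those stretches are shown because they hold the only matches, with the match in capitals as read on the gene's strand, where it appears in its reverse complement, and a match is a description and not a binding site. No member with a match was called in any comparison: Kcna6 had 0.322 and 1.38 CPM in AAV-XBP1S, 1.53 and 0.903 in AAV-ATF6N, and 0.0813 and 1.84 in AAV-GFP, Kcnab2 had at most 18 reads in a library, Kcnj13 was not tested and Kcnq1ot1 is a noncoding transcript.
Kcna6 (chr6:126740675-126740734, minus strand): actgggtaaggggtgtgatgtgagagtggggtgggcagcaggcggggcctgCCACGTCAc
Kcnab2 (chr4:152477695-152477754, minus strand): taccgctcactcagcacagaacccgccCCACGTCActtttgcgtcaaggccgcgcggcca
Kcnj13 (chr1:87394894-87394953, minus strand): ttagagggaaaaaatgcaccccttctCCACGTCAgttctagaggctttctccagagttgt
Kcnq1ot1 (chr7:143296563-143296622, minus strand): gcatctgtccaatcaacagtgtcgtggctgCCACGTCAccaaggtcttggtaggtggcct

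For Kcnj8 and Scn4b, the members of smallest p that have a window, the 100 bases before the RefSeq start are given for reference, with no match to the 3 elements. Kcnj14 had no entry.
Kcnj8 (chr6:142571615-142571714, minus strand): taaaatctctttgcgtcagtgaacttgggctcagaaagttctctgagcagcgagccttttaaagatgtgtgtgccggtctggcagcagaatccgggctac
Scn4b (chr9:45138524-45138623, plus strand): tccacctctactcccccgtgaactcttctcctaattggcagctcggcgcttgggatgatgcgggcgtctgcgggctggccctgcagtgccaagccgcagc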

How the data were processed

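The authors deposited whole-number counts for 23337 genes in 6 libraries. STAR, featureCounts and the build mm10 are named by the submitters' processing notes, without versions, and neither the annotation release nor the strand setting is stated in the sources used here. Polyadenylated RNA was amplified with SMART-Seq v4 (a description says SMART-Seq2) and Nextera XT, per the labels. The authors' deposited tables of each virus against AAV-GFP hold, per the file headers, a mean normalized signal, log2 fold changes, standard errors and Wald statistics as scores, and p-values. All 6 count columns were used.

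Counts were fitted with edgeR 4.0.16 in R 4.3.3 (filterByExpr with a minimum count of 10, TMM, quasi-likelihood test, group as the only term, all 6 libraries). Benjamini-Hochberg adjustment ran over the 14587 genes tested, two-sided, at 0.05. CPM use the TMM-adjusted library size and CPM per kilobase the deposited exonic length. DESeq2 1.42.0 was an alternative, with a missing adjusted p left missing. The script was tested on simulated data with 200 changed genes, a check of the code that does not show how well changes in channel genes would be found. Reads carried no molecular identifiers named in the labels, so floors cover counting error only.

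Members and lists were chosen with earlier results of these data known. Named with values were members called by edgeR, the 8 of smallest p in each direction against AAV-GFP with p under 0.05, no overlap and at least 1 CPM, the 15 highest per kilobase, and 27 principal cardiac subunits; some of these are not reported here. The 8 genes plotted by library were chosen after their values were seen, as were the untested, silent and promoter-matched genes named. Of the other marker lists, fibroblasts summed to 793.4 and 921.9 CPM in AAV-XBP1S, 805 and 768.2 in AAV-ATF6N, and 458.6 and 581.5 in AAV-GFP. Macrophages and leukocytes (7 of 8 markers in the table) summed to 44.3 and 39.7, 41.1 and 42.6, and 29.4 and 29.7 CPM in the same groups. Both lists thus lay above both controls in each virus group, and their part in the channel results was not tested. Over the 6 libraries, atrial genes summed to 127.9 to 2362 CPM, conduction system genes to 73.2 to 133.1 CPM, and neurons and Schwann cells to 10.5 to 18.9 CPM.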

Additional observations from a re-analysis of the deposited data

How the results depend on the processing

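Depth limits the rarest genes, 3 counts being 0.0305 to 0.0459 CPM, and 2 libraries a group limit the rest. In AAV-XBP1S against AAV-GFP, edgeR called 0 channel genes. DESeq2 called 2 (of 484 genes called in all), edgeR without a filter 1 (of 233) and with a gene-length offset 2 (of 287). In AAV-ATF6N against AAV-GFP, edgeR called 0, DESeq2 6, no filter 3, the replicate block 3, the gene-length offset 2, and leaving out a library gave 0 to 11, the 11 without AAV-GFP replicate 2 and 1 without AAV-GFP replicate 1. In AAV-ATF6N against AAV-XBP1S, edgeR called 1 and DESeq2 called 10 (of 803). No filter gave 3 (of 458) and the 4 compared libraries alone 5 (of 663). The replicate block gave 3 (of 356) and the gene-length offset 6 (of 593). The number of genes called thus moved with the setting among all genes as well as among members. In each comparison the number of members called also changed when certain single libraries were left out. Size factors of the DESeq2 type in edgeR left the counts at 0, 0 and 1. Same-numbered libraries deviated together in AAV-XBP1S and AAV-GFP (correlation 0.379) and not in the other pairs of groups (-0.048 and -0.0402), so the numbers were not taken to pair libraries. The median log2 fold change of the members was 0.16 with the replicate block in AAV-ATF6N against AAV-GFP, and in the direct comparison 0.24 with the 4 compared libraries alone and 0.33 without both libraries of highest Rn45s share. The cause of these differences was not tested.

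The 90 log2 fold changes of named genes gave 1170 values under the alternatives, of which 39 passed the threshold where edgeR with all libraries did not, 4 lost it (Kcnj14 in the direct comparison) and 38 changed sign. None of those 38 was past the threshold in edgeR with all libraries. With the gene-length offset they were Kcnj15 at -0.19, Cacna1g at -0.16, Hcn2 at -0.10, Cacna2d1 at -0.35 and Cacna1h at -0.20 in AAV-ATF6N against AAV-GFP, and Kcnj11 at -0.019 in the direct comparison. Without both libraries of highest Rn45s share (AAV-XBP1S replicate 1 and AAV-GFP replicate 1), a setting chosen after seeing the data, they were Cacna2d1 at 0.029 in AAV-XBP1S; Kcnj15 at -0.43, Cacna1g at -0.011, Kcnip2 at -0.0014, Kcnq1 at -0.13, Hcn2 at -0.22 and Kcnj3 at -0.058 in AAV-ATF6N. Leaving out a library in turn gave, in AAV-XBP1S against AAV-GFP, Cacna1c -0.37 to 0.057, Kcnip2 -0.44 to 0.075, Kcnj5 -0.70 to 0.22, Cacnb2 -0.48 to 0.54, Cacna2d1 -0.69 to 0.087, Kcnd2 -0.66 to 0.11 and Kcnj3 -0.72 to 0.90. In AAV-ATF6N against AAV-GFP it gave Kcnab3 -0.63 to 0.30, Kcnj15 -0.43 to 0.81, Kcnh2 -0.42 to 0.066, Cacna1g -0.012 to 0.45, Kcnip2 -0.0012 to 0.49, Kcnq1 -0.13 to 0.49, Hcn2 -0.21 to 0.32, Cacna2d1 -0.30 to 0.50, Kcnj3 -0.059 to 1.53 and Hcn4 -0.33 to 0.20. In the direct comparison it gave Kcnj11 -0.25 to 0.46 and Kcnd3 -0.054 to 0.94.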

Other observations

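Of the 18 channel genes that reached 10 counts in a library but were not tested, 3 had all their reads in 1 library. The sodium pore Scn11a, known from sensory neurons, had 18 reads in AAV-GFP replicate 2, the T-type calcium pore Cacna1i had 22 in AAV-ATF6N replicate 1 and the potassium pore Kcnh4 had 13 in AAV-ATF6N replicate 2. Kcnj10, an inward rectifier known from glia, had 16 and 10 reads in AAV-XBP1S, 0 and 0 in AAV-ATF6N, and 4 and 3 in AAV-GFP. The sodium pore Scn4a, the skeletal muscle form, had 2.57 and 6.17 CPM in AAV-XBP1S, 9.69 and 10.7 in AAV-ATF6N, and 6.70 and 12.6 in AAV-GFP. These genes were chosen after their values were seen.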
